A study of Mus musculus with 4 samples.

Results

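Type 2 conventional dendritic cells (cDC2s) were examined in 4 single-cell RNA libraries of live CD45+ leukocytes sorted from mouse pancreatic tumors. A cDC2 was defined as a cell with at least 1 unique molecular identifier (UMI, a counted RNA molecule) of Flt3, at least 1 of H2-Aa and at least 1 of Cd209a, Clec10a or Mgl2. It had no UMI of Xcr1, Clec9a, Siglech, Cd3e or C1qa, and fewer than 2 of Fscn1, Ccl22 and Ccr7 were detected in it. The gate took 362 of 51841 cells that had 300 to 5000 genes and at most 6% mitochondrial UMIs. These were 75 cells of the untreated library, 61 of the ADU-S100 library, 144 of the anti-LTβR library and 82 of the combination library. Sets of 4 values below keep that order of libraries.

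All mice were male C57BL/6 mice that carried subcutaneous tumors of KPC cells, a line from a mouse pancreatic carcinoma that arose under a Pdx1-driven Cre. The untreated group received no agonist. The second group received 1 intratumoral injection of ADU-S100, a cyclic dinucleotide that activates STING, and the third received intraperitoneal 4H8, an agonistic antibody to the receptor of lymphotoxin-β (anti-LTβR). The combination group received both agents. ADU-S100 was injected at the start of the schedule and the antibody was given repeatedly. Tumors of every group were resected on the same day at the end of the schedule and pooled within a group before the sort. Each group is therefore 1 library without a replicate. No test between groups was possible, no p-value is given, and every interval below is a 95% interval that covers counting error only, not variation between mice, tumors or libraries.

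Conventional dendritic cells depend on the cytokine receptor FLT3, take up antigen in tissue and present it to T cells on MHC molecules. The cDC2 branch, which carries SIRPα and needs the transcription factors IRF4 and KLF4 for parts of its development, presents antigen mainly to CD4 T cells, whereas the cDC1 branch, marked by XCR1 and CLEC9A, is specialized for cross-presentation to CD8 T cells. LTβR signals through the noncanonical NF-κB pathway and has been tied to the upkeep of cDC2s in lymphoid tissue, and STING induces type I interferon and NF-κB target genes in myeloid cells.

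The genes that chose the cells are given as a description only. Flt3 stood at 232, 183, 249 and 286 CPM, which are UMIs scaled to a total of 1000000 UMIs over all members of a library. Cd209a, which encodes the DC-SIGN homolog CD209a, stood at 499, 245, 431 and 452 CPM and was detected in 60, 39.3, 44.4 and 41.5% of members. Clec10a and Mgl2, which encode a pair of closely related galactose-binding lectins, stood at 329, 256, 305 and 293 CPM and at 410, 427, 730 and 479 CPM. Because both genes are near copies, the split of reads between them is uncertain. H2-Aa, an MHC class II chain, stood at 9018, 9589, 8572 and 8432 CPM.

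Free RNA was read from T cells, defined by at least 2 of Cd3e, Cd3d and Cd3g and no Flt3. T cells held H2-Aa at 698, 692, 910 and 1242 CPM and Clec10a at 14.1, 10.1, 8.92 and 10.1 CPM. They held Mgl2 at 19.0, 4.53, 49.4 and 84.5 CPM, so its background was highest in the combination library. Cd209a was at most 3.91 CPM in T cells. No such value can be given for Flt3, since the T cell gate required its absence. The median T cell had 4264, 4566, 3469 and 2368.5 UMIs, fewer than the median member, so CPM of T cells and members are not at equal depth.

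Many members lay near the limits of the gate. Exactly 1 Flt3 UMI was found in 38, 29, 84 and 51 of them, and exactly 1 lectin UMI in 15, 12, 27 and 24. Just outside, 194, 242, 686 and 722 cells failed on Flt3 alone and 39, 72, 77 and 96 on the 3 lectin genes alone. A further 28, 19, 51 and 48 cells failed only through a C1qa UMI and 23, 21, 30 and 22 only through Fscn1, Ccl22 and Ccr7. The number failing on Flt3 alone exceeded the number of members in each library, and it was largest in the anti-LTβR and combination libraries.

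The label was checked against genes that the gate did not use. Zbtb46, a transcription factor of conventional dendritic cells, stood at 72.3, 46.7, 72.8 and 99.1 CPM in members and at no more than 2.81 CPM in MHC II+ Ccr2+ monocytes. Irf4 stood at 105, 77.3, 113 and 76.0 CPM in members, at 10.3, 9.09, 27.3 and 22.8 CPM in those monocytes and at 10.7, 34.8, 10.5 and 9.50 CPM in cDC1s. Irf8, the factor of the cDC1 branch, was at 105, 167, 103 and 136 CPM in members and at 1435, 1063, 1333 and 1370 CPM in cDC1s. Sirpa was at 314, 278, 379 and 352 CPM in members, above 88.9, 162, 148 and 119 CPM in cDC1s. In all 4 libraries Zbtb46 was higher in members than in those monocytes, Irf4 and Sirpa were higher and Irf8 was lower than in cDC1s, and Irf4 was higher than in both. Summed over all 26 listed cDC2 genes outside the gate, members held 6616, 6815, 7538 and 6847 CPM, cDC1s 3096, 3483, 3692 and 3143 CPM, those monocytes 7102, 5963, 7173 and 6964 CPM and plasmacytoid dendritic cells 8158, 9150, 7623 and 6832 CPM. The summed list thus set members apart from cDC1s, but not from the monocytes or the plasmacytoid cells. Cells of a gate share their library, and T cells of the ADU-S100 library held Irf4 at 81.6 CPM, as high as members.

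Members held 677550, 621310, 1084433 and 434068 UMIs in all. The median member had 9076, 10082, 6791.5 and 4693 UMIs and 3112, 3086, 2592.5 and 1993 genes, so the combination library was the shallowest. Between 34 and 83 cell barcodes occurred in both libraries of a pair, and 0 of them belonged to members of both. At least 2 UMIs of each of 2 or more genes of 1 other lineage were found in 34, 35, 89 and 34 members, mostly macrophage genes (29, 32, 75 and 27 members) and also neutrophil genes (4, 16, 12 and 6) and B and plasma cell genes (11, 4, 18 and 10). This criterion is met more easily by deeper cells, and several of its macrophage genes, such as Cd14, Cd68 and Mrc1, are also expressed by dendritic cells. Many results are also given without these members, and 41, 26, 55 and 48 members were then left. In the combination library 1 member of 24614 UMIs, 5.67% of the member UMIs there, held 97.7% of the Ighm and 96.6% of the Igkc UMIs, and immunoglobulin genes are not described further.

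The first comparison asked whether the agonists altered the share of cDC2s among leukocytes. Without treatment 0.965% (0.759 to 1.21) of kept cells were cDC2s. The share was 0.426% (0.326 to 0.547) after ADU-S100, 1.03% (0.866 to 1.21) after the antibody and 0.522% (0.416 to 0.648) after both agents. The share was lower in both libraries that received ADU-S100, at 0.441 (0.315 to 0.618) times the untreated share with ADU-S100 alone and 0.542 (0.396 to 0.740) times with the combination. With anti-LTβR the ratio was 1.06 (0.805 to 1.40), and its interval includes 1. The combination stood at 0.509 (0.389 to 0.667) times the anti-LTβR share and at 1.23 (0.881 to 1.71) times the ADU-S100 share. Without members that held genes of another lineage the shares were 0.527, 0.181, 0.392 and 0.306%. The ratios to untreated were then 0.344 (0.211 to 0.562) for ADU-S100, 0.743 (0.496 to 1.11) for the antibody and 0.580 (0.383 to 0.879) for both agents, so the lower shares under ADU-S100 remained. The combination stood at 0.781 (0.530 to 1.15) times the anti-LTβR share and at 1.68 (1.05 to 2.71) times the ADU-S100 share in that setting.

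Neutrophils, defined by at least 2 of Csf3r, Cxcr2 and Retnlg, made up 4.6, 29.6, 6.16 and 6.91% of kept cells, so they enlarged the denominator most in the ADU-S100 library. Among cells outside that gate the cDC2 share was 1.01, 0.605, 1.09 and 0.561%, so that the treated libraries stood at 0.598 (0.427 to 0.838), 1.08 (0.819 to 1.43) and 0.555 (0.406 to 0.758) times untreated. Among cells with both a Flt3 and an H2-Aa UMI, of which there were 486, 388, 553 and 463, cDC2s were 15.4% (12.3 to 19.0), 15.7% (12.2 to 19.7), 26.0% (22.4 to 29.9) and 17.7% (14.3 to 21.5). Within this wider pool of dendritic cells the cDC2 share was thus 1.69 (1.31 to 2.17) times the untreated one with anti-LTβR and within counting error of it, at 1.02 (0.747 to 1.39) and 1.15 (0.862 to 1.53) times, with ADU-S100 and the combination. Every cell was also thinned to 2000 UMIs and shallower cells were left out, which left 36, 22, 51 and 34 members. They were 0.586% (0.411 to 0.811), 0.216% (0.135 to 0.326), 0.488% (0.363 to 0.641) and 0.397% (0.275 to 0.554) of cells. At this equal depth the interval of the combination overlapped the untreated one, while that of ADU-S100 lay below it. The shares of the Flt3 and H2-Aa pool without members holding genes of another lineage were 9.07, 7.37, 11.9 and 11.2%, and the ratio under anti-LTβR was 1.31 (0.891 to 1.92), so its interval included 1.

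**Figure D1:**
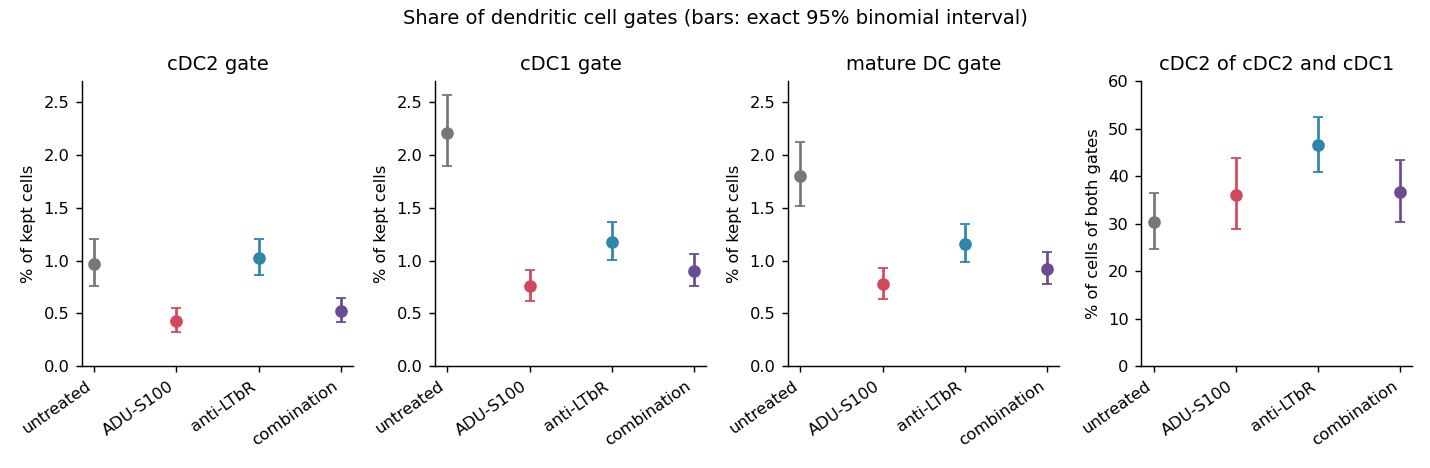
Share of cDC2s, cDC1s and mature dendritic cells (mature DC) in percent of kept cells, and of cDC2s among cDC2s and cDC1s together, in each library; points are shares and bars exact 95% binomial intervals. The cDC2 share is 0.965, 0.426, 1.03 and 0.522%, while cDC1s and mature dendritic cells are below untreated in all 3 treated libraries.

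Other dendritic cells were compared in the same libraries. The cDC1 gate, which asked for Xcr1 or Clec9a, held 2.21, 0.754, 1.18 and 0.905% of kept cells, and mature dendritic cells, which carry at least 2 of Fscn1, Ccl22 and Ccr7, were 1.8, 0.775, 1.15 and 0.917%. Under anti-LTβR both were below untreated, at 0.531 (0.430 to 0.657) and 0.641 (0.512 to 0.802) times its share, whereas cDC2s were at 1.06 times. Of cDC2s and cDC1s together, cDC2s were 30.4% (24.7 to 36.5), 36.1% (28.9 to 43.8), 46.6% (40.9 to 52.3) and 36.6% (30.3 to 43.3). Of cDC2s and mature dendritic cells together they were 34.9, 35.5, 47.1 and 36.3%. The anti-LTβR library had the largest proportion of cDC2s in both pairs, and its interval does not overlap the untreated one in the first. This rested on members that held genes of another lineage, without which cDC2s were 19.2, 19.4, 25 and 25.3% of cDC2s and cDC1s and 22.7, 19, 25.3 and 25% of cDC2s and mature dendritic cells, with intervals that overlap in all libraries. MHC II+ Ccr2+ monocytes, defined by H2-Aa, Ccr2 and Ly6c2 without Flt3, were 4.21, 3.78, 6.85 and 4.96% of kept cells. Of cDC2s and these monocytes together, cDC2s were 18.7% (15.0 to 22.8), 10.1% (7.84 to 12.8), 13.02% (11.1 to 15.1) and 9.52% (7.65 to 11.7), so that the untreated library had the largest proportion in this pair. It was 11.1, 4.59, 5.41 and 5.80% without members that held genes of another lineage. The other cell types were not trimmed in the same way, and the shares without those members were set out after the data were seen. The part of monocyte-derived cells in the cDC2 gate was not tested.

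The lectins that defined the cells occurred in different combinations. All 3 of Cd209a, Clec10a and Mgl2 were detected in 14, 8, 27 and 10 members, and Mgl2 alone in 18, 12, 30 and 19. Clec10a alone was found in 5, 14, 27 and 22 members, which is 6.67% (2.20 to 14.9), 23% (13.2 to 35.5), 18.8% (12.7 to 26.1) and 26.8% (17.6 to 37.8) of them. Cd209a together with Clec10a was found in 19, 9, 16 and 10 members. In the untreated library 25.3% of members had Cd209a with Clec10a and no Mgl2, against 14.8, 11.1 and 12.2% in the treated libraries. As members were selected on these genes, the combinations are a description, and they depend on depth.

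Gene levels were computed from UMIs summed over the members of a library, as CPM, and compared as log2 ratios with 0.5 UMI added to each sum. The 2710 genes with at least 200 UMIs over all members entered, without the 13 genes of the gate. Against untreated, 83 genes (3.06%) were at least 2-fold higher and 31 (1.14%) at least 2-fold lower with ADU-S100. With anti-LTβR 61 genes (2.25%) were higher and 4 (0.148%) lower, and with the combination 44 (1.62%) were higher and 26 (0.959%) lower. Without members that held genes of another lineage 69, 66 and 84 genes (2.55, 2.44 and 3.1%) were higher and 85, 23 and 52 (3.14, 0.849 and 1.92%) lower in the 3 treated libraries. These shares are the background for the gene groups below, and with all members the median over all genes was −0.06, 0.00 and −0.06. Counting error alone can carry a gene of low counts past 2-fold, and the intervals show where that is so.

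Of 26 genes that mark cDC2s or their transcription program outside the gate, 17 were kept. At most 1 of them was 2-fold higher and at most 1 was 2-fold lower in any comparison with untreated, and their medians were 0.00, 0.22 and 0.07. Of these genes 2, 1 and 2 were higher and 0 lower without members holding genes of another lineage, with medians of 0.24, 0.39 and 0.42. Klf4, a transcription factor needed by part of the cDC2 lineage, stood at 109, 224, 290 and 182 CPM. It was above untreated in all 3 treated libraries, with log2 ratios of 1.03 (0.62 to 1.46), 1.40 (1.04 to 1.79) and 0.74 (0.26 to 1.21), and these were 1.01, 1.19 and 1.00 without members that held genes of another lineage. T cells held Klf4 at 29.2, 72.9, 73.9 and 78.9 CPM, also higher in the treated libraries, and the part of free RNA in the difference was not tested. Cbfa2t3, a transcriptional corepressor of dendritic cell identity, stood at 306, 153, 367 and 293 CPM and was lowest in the ADU-S100 library, with a ratio of −0.99 (−1.36 to −0.64), with at most 13.4 CPM in T cells.

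Cd209d, a relative of Cd209a, stood at 108, 62.8, 127 and 205 CPM, with log2 ratios of −0.77 (−1.38 to −0.20) under ADU-S100 and 0.93 (0.47 to 1.40) under the combination. Without members holding genes of another lineage these were 0.87 (0.07 to 1.69) and 1.07 (0.31 to 1.87), so the sign under ADU-S100 turned. With at least 2 Flt3 UMIs per member the ratio under the combination was −0.08, and at 2000 UMIs per cell that under ADU-S100 was 0.96, so neither direction held throughout. Cd7, found in part of the cDC2 lineage and in precursors, stood at 213, 180, 118 and 87.5 CPM, and its ratio with the combination was −1.27 (−1.84 to −0.76), or −0.79 without members holding genes of another lineage. T cells, which express Cd7 themselves, held it at 84.9 to 144 CPM. Ccr2, the receptor that brings monocytes and some pre-dendritic cells out of the blood, stood at 413, 404, 532 and 230 CPM. Its ratio with the combination, −0.84 (−1.19 to −0.51), became 0.12 (−0.58 to 0.78) without those members, so the lower level was not seen without them.

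cDC2s are divided into a Notch-dependent, T-bet+ form (cDC2A) and a more monocyte-like form (cDC2B). Only 3 of 11 cDC2A genes (Jaml, Notch2 and Nr4a3) were expressed highly enough, and 0 of the 3 passed 2-fold in any library. Nr4a3 was at 466, 866, 557 and 541 CPM. Of 12 cDC2B genes 9 were kept, and 3, 4 and 0 of the 9 were at least 2-fold higher, with medians of 0.22, 0.36 and 0.10. Without members holding genes of another lineage 3, 2 and 1 were so, beside 2.55, 2.44 and 3.1% of all genes. The medians were then 0.67, 0.66 and 0.33. Besides Klf4 the genes higher with all members included Cebpb, a transcription factor of monocytes, at 146, 557, 411 and 260 CPM. Its log2 ratios were 1.93 (1.60 to 2.27), 1.49 (1.18 to 1.82) and 0.83 (0.43 to 1.24), and 1.22, 0.66 and 0.51 without those members, while T cells held 217, 352, 222 and 287 CPM of it. Fcgr3, an activating Fc receptor on the same list, was at 45.8, 159, 155 and 73.7 CPM in members and at 109, 144, 115 and 131 CPM in T cells, and its ratio with anti-LTβR went from 1.74 to 0.33 when those members were left out.

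The MHC class II machinery differed little. Of 17 genes 13 were kept and 0 of the 13 passed 2-fold in either direction in any treated library, with medians of −0.08, −0.14 and −0.23. Without members holding genes of another lineage 1, 0 and 0 of the 13 were at least 2-fold lower, beside 3.14, 0.849 and 1.92% of all genes. With all members of the combination library, all 13 were below untreated, 10 of them with an interval below 0, as 375 of all 2710 genes (13.8%) had. At 2000 UMIs per cell the ratios of Cd74 and H2-Eb1 there turned to 0.33 and 0.35. Cd74, the invariant chain, stood at 19503, 18464, 18863 and 18202 CPM and H2-Eb1 at 8002, 7621, 8105 and 7628 CPM, so these abundant genes differed little. H2-DMb2, a subunit of the peptide editor H2-DM, was at 429, 264, 299 and 247 CPM, with log2 ratios of −0.70 (−0.99 to −0.42), −0.52 (−0.76 to −0.29) and −0.80 (−1.13 to −0.48) that were −0.78, −0.26 (−0.60 to 0.08) and −0.72 without members holding genes of another lineage. Ciita, which drives transcription of MHC class II genes, was at 731, 462, 561 and 564 CPM, with ratios of −0.66 (−0.88 to −0.45), −0.38 (−0.56 to −0.21) and −0.37 (−0.60 to −0.15). Leaving out members with genes of another lineage, the ratio of Ciita with anti-LTβR was 0.07 and those of the other libraries were −0.64 and −0.39.

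Of 19 genes for MHC class I presentation 18 were kept. In the 3 comparisons 0 were 2-fold higher, and 1, the nonclassical class I gene H2-Q4, was 2-fold lower, with the combination. The medians were −0.22, −0.22 and −0.28, below the median of all genes, but those under anti-LTβR and the combination turned to 0.18 and 0.09 at 2000 UMIs per cell. H2-Q4 stood at 112, 99.8, 73.8 and 55.3 CPM, with a ratio of −1.0 (−1.75 to −0.34) in the combination library, but T cells held it at 188 to 244 CPM. Calr, a chaperone of the peptide-loading complex, stood at 618, 414, 549 and 458 CPM, with a ratio of −0.58 (−0.81 to −0.35) under ADU-S100 that was −0.30 (−0.69 to 0.08) without members holding genes of another lineage.

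**Figure D2:**
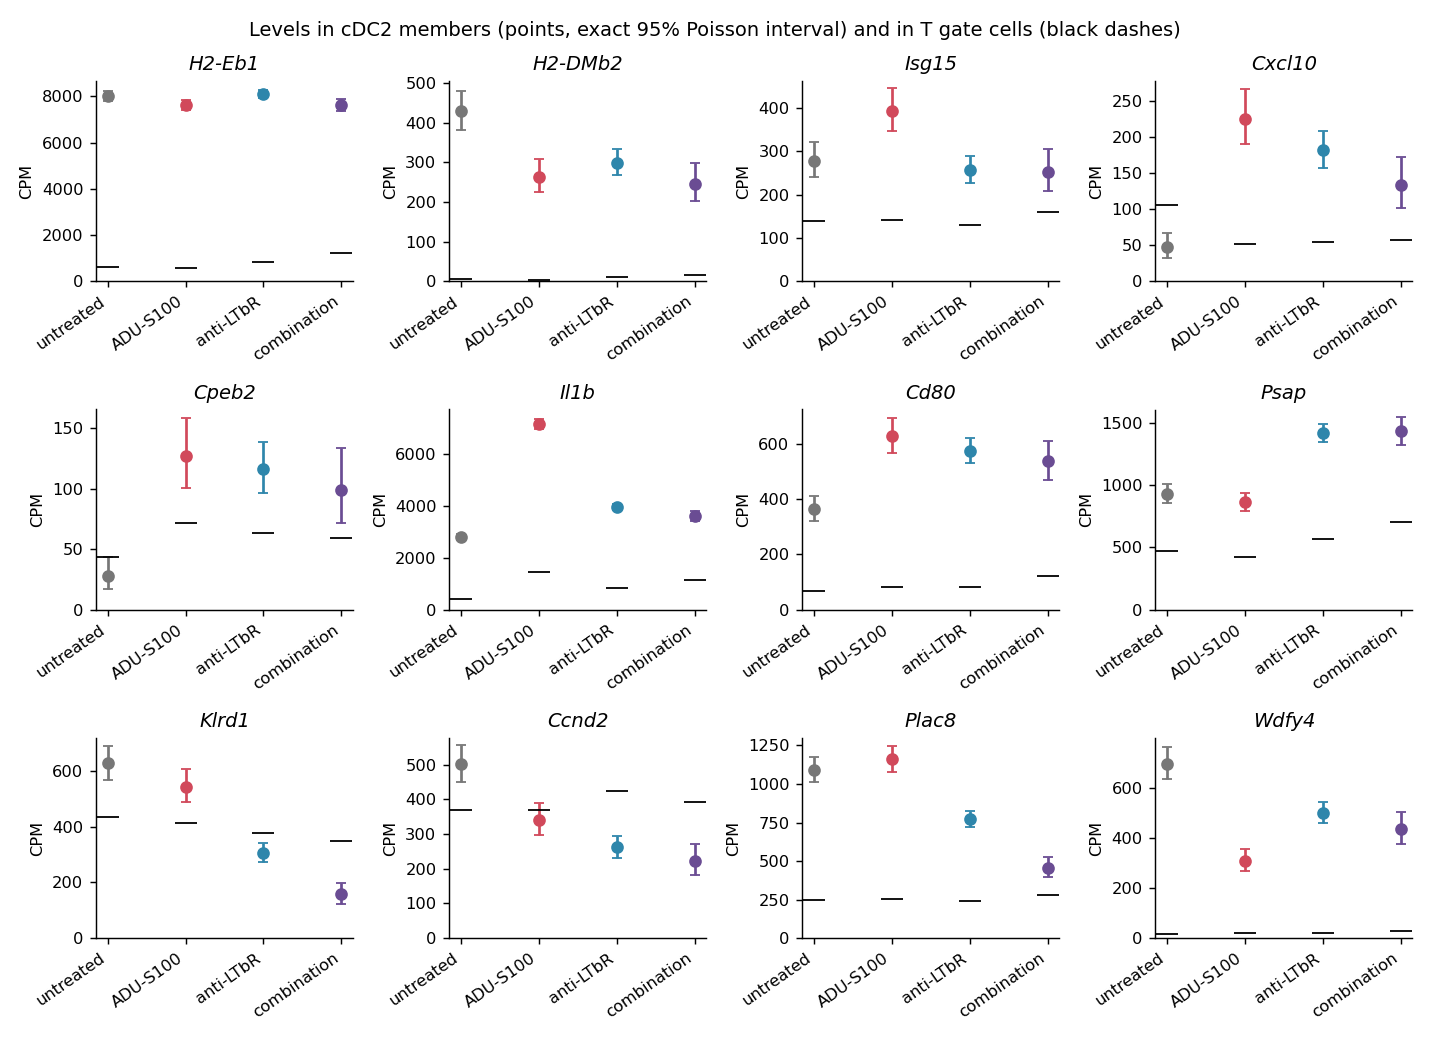
Levels of 12 genes in cDC2s in CPM in each library; points are levels with exact 95% Poisson intervals, and black dashes are levels in T cells of the same library. H2-Eb1 is nearly level, Il1b reaches 7151 with ADU-S100, Klrd1 and Plac8 reach 157 and 456 with the combination, and Cpeb2, Cxcl10 and Cd80 are higher in every treated library.

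The interferon program that STING can induce was compared next. As tumors were taken at the end of the schedule, an early response to ADU-S100 was not sampled. Of 40 type I interferon-stimulated genes 22 were kept, and 0 of the 22 passed 2-fold in either direction in any treated library. Their medians were −0.02, −0.16 and −0.23. In members without genes of another lineage 3, 0 and 0 of the 22 were at least 2-fold lower, beside 3.14, 0.849 and 1.92% of all genes, and 0 were higher, with medians of −0.30, −0.09 and −0.27. Isg15, a ubiquitin-like interferon-induced protein, stood at 279, 394, 256 and 253 CPM, and its ratio with ADU-S100 was 0.50 (0.22 to 0.78), or −0.52 (−1.04 to −0.03) without members holding genes of another lineage. Ifi47, an interferon-inducible GTPase, was at 130, 72.4, 103 and 96.8 CPM, with a ratio of −0.83 (−1.39 to −0.31) under ADU-S100 that was −1.28 (−2.57 to −0.25) in members without genes of another lineage. With ADU-S100, anti-LTβR and the combination none of the 3 medians was above 0.

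Of 22 genes that answer interferon-γ 9 were kept, and the number at least 2-fold higher was 1, 1 and 2. Cxcl10, a chemokine for CXCR3+ T cells, stood at 47.2, 225, 182 and 134 CPM, and its log2 ratios were 2.24 (1.69 to 2.86), 1.92 (1.40 to 2.53) and 1.49 (0.85 to 2.17). It was detected in 20, 14.8, 14.6 and 12.2% of members, so more UMIs came from no larger a proportion of cells, while T cells held 106, 51.6, 54.2 and 57.7 CPM. A single member held 18.8, 45, 34.5 and 34.5% of the Cxcl10 UMIs of its library. The ratios of Cxcl10 were 2.29, 1.30 and 1.63 without members holding genes of another lineage, and that under anti-LTβR turned to −1.15 at 2000 UMIs per cell. Cxcl9, a chemokine for the same receptor, was at 273, 167, 134 and 283 CPM, with a ratio of −1.03 (−1.35 to −0.71) under anti-LTβR. Irf1 was at 94.5, 169, 140 and 210 CPM, but T cells held it at 162, 226, 179 and 173 CPM.

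The targets of the agonists were themselves detected in cDC2s. Sting1 stood at 125, 101, 93.1 and 104 CPM, with ratios of −0.30 (−0.80 to 0.18), −0.43 (−0.86 to 0.00) and −0.27 (−0.83 to 0.26), and 7 of 17 STING pathway genes were kept, 0 of them past 2-fold. Ltbr, too low to enter and described outside the rule for naming genes after its values were seen, stood at 31.0, 45.1, 27.7 and 34.6 CPM from 21, 28, 30 and 15 UMIs, against at most 9.79 CPM in T cells. No difference in either receptor was detectable at this depth. The part of free RNA in the level of Sting1 was not tested.

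Of 28 genes of the lymphotoxin receptor and NF-κB pathways 18 were kept, and 3, 1 and 1 were at least 2-fold higher, with 0 lower and medians of 0.58, 0.37 and 0.10. Without members holding genes of another lineage the medians were 0.30, 0.12 and 0.13. Nfkbia, the feedback inhibitor IκBα, stood at 524, 1302, 886 and 852 CPM, with a ratio of 1.31 (1.13 to 1.5) under ADU-S100 that was 0.75 (0.44 to 1.05) after that exclusion. Under anti-LTβR the ratio of Nfkbia went from 0.76 to −0.17. T cells held 578, 1043, 585 and 632 CPM of it. Tnfaip2, an NF-κB target, stood at 38.4, 101, 113 and 108 CPM and was higher in all 3 treated libraries, by log2 ratios of 1.39 (0.72 to 2.12), 1.54 (0.94 to 2.23) and 1.48 (0.78 to 2.25), which the exclusion left at 1.40, 1.23 and 1.81. At 2000 UMIs per cell the ratio of Tnfaip2 under ADU-S100 turned to −0.51. T cells held Tnfaip2 at 21.7, 42.5, 32.8 and 53.8 CPM.

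The noncanonical arm to which LTβR connects was represented by Relb and Map3k14. Relb stood at 143, 127, 147 and 94.5 CPM and Map3k14, which encodes the kinase NIK, at 335, 264, 318 and 187 CPM. With the combination their ratios were −0.59 (−1.16 to −0.06) and −0.84 (−1.23 to −0.47). That of Relb was −0.63 (−1.51 to 0.14) without members holding genes of another lineage. T cells held Relb at 100 to 122 CPM, close to the level of members.

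Of 21 costimulatory and coinhibitory ligands 12 were kept, of which 1, 0 and 0 were at least 2-fold higher and 1, 0 and 0 lower, with medians of 0.20, 0.19 and 0.10. Cd80, the B7-1 ligand of CD28 and CTLA-4, stood at 363, 628, 575 and 537 CPM and at no more than 121 CPM in T cells. Its log2 ratios were 0.79 (0.56 to 1.03), 0.66 (0.45 to 0.88) and 0.56 (0.30 to 0.83), and they were 0.38, 0.34 and 0.35 without members holding genes of another lineage, with intervals above 0. Cd86, the related B7-2 ligand, stood at 1117, 1278, 1197 and 1253 CPM. Both stood above untreated in every treated library by less than 2-fold, and for Cd86 the interval under anti-LTβR includes 0.

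Pdcd1lg2, which encodes the PD-1 ligand PD-L2, stood at 95.9, 269, 167 and 152 CPM, with ratios of 1.48 (1.06 to 1.92) under ADU-S100 and 0.79 under anti-LTβR that were 0.92 (0.33 to 1.52) and 0.74 (0.21 to 1.30) after the exclusion. Cd274, which encodes PD-L1, stood at 379, 398, 413 and 230 CPM, with a ratio of −0.71 (−1.07 to −0.38) in the combination library. Btla, an inhibitory receptor of dendritic cells and lymphocytes, stood at 162, 66.0, 194 and 131 CPM, with a ratio of −1.29 (−1.85 to −0.77) under ADU-S100 that was −0.84 after the exclusion. T cells held Btla at 47.3 to 81.6 CPM. Cd48, the ligand of the receptor 2B4, was at 244, 175, 154 and 154 CPM.

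With all members, cytokines had the highest medians among the functional groups. Of 23 genes only 5 reached the minimum, and 3, 3 and 2 of the 5 were at least 2-fold higher, with medians of 1.36, 1.45 and 0.94. Without members holding genes of another lineage 2, 1 and 1 of the 5 were at least 2-fold higher, beside 2.55, 2.44 and 3.1% of all genes. The medians were then 1.00, 0.10 and 0.57, and with anti-LTβR and the combination other groups stood higher. Il1b, which encodes interleukin-1β, stood at 2789, 7151, 3967 and 3603 CPM, with T cells at 413, 1452, 838 and 1141 CPM. Its log2 ratios were 1.36 (1.28 to 1.44), 0.51 (0.43 to 0.59) and 0.37 (0.27 to 0.47), and 1.5, 0.34 and 0.61 after the exclusion. The ADU-S100 library stood apart from the other 3 for Il1b in members, and the level in its T cells was highest as well.

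Il1rn, the antagonist of the interleukin-1 receptor, stood at 48.7, 241, 152 and 157 CPM. Its ratios were 2.29 (1.76 to 2.90), 1.63 (1.10 to 2.23) and 1.67 (1.07 to 2.33), and 1.00, −0.44 and 1.20 after the exclusion, so the sign under anti-LTβR changed with it. Osm, which encodes oncostatin M, stood at 177, 333, 485 and 431 CPM, with ratios of 0.91 (0.58 to 1.25), 1.45 (1.16 to 1.75) and 1.28 (0.94 to 1.63) that became −0.32 (−1.04 to 0.35), 0.10 and 0.57. At 2000 UMIs per cell the ratios under the combination turned to −0.45 for Il1rn and −0.42 for Osm, and that of Osm under ADU-S100 to −0.74. Vegfa, the angiogenic factor, was at 38.4, 126, 108 and 73.7 CPM in members and at 68.7, 92.8, 81.5 and 118 CPM in T cells.

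Of 19 chemokines 8 were kept, with 2, 1 and 2 at least 2-fold higher, 1, 1 and 1 lower and medians of 0.51, 0.80 and 0.30, which became 0.15, −0.02 and −0.10 without members holding genes of another lineage. Those under ADU-S100 and anti-LTβR were −0.43 and −0.03 at 2000 UMIs per cell. Ccl17, a CCR4 ligand that attracts regulatory and type 2 helper T cells, stood at 108, 40.2, 214 and 320 CPM. It was detected in 16, 8.2, 15.3 and 18.3% of members, and its log2 ratio was −1.40 (−2.14 to −0.75) under ADU-S100 and 1.57 (1.15 to 2.0) under the combination. The exclusion left Ccl17 at −3.03 and 1.5, and T cells held at most 15.7 CPM. At 2000 UMIs per cell the ratio of Ccl17 under the combination turned to −1.77, and 1 member held 64% of its 25 UMIs in the ADU-S100 library. Ccl4, which is abundant in T cells, stood at 576, 322, 437 and 207 CPM in members and at 1214, 1099, 622 and 993 CPM in T cells, and its ratio under ADU-S100 went from −0.84 to 0.32 after the exclusion. Cxcl2, a neutrophil chemoattractant, was at 365, 1741, 666 and 654 CPM in members and at 258, 1810, 593 and 689 CPM in T cells. Its ratio under ADU-S100 was 2.17 (1.76 to 2.62) after the exclusion. The part of free RNA in its level was not tested.

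Of 18 receptors for chemokines and positioning cues 8 were kept, and 1, 0 and 0 were at least 2-fold higher. Cxcr4, the receptor of CXCL12, stood at 78.2, 206, 70.1 and 71.4 CPM, with a ratio of 1.39 (0.92 to 1.89) under ADU-S100 that was 1.52 after the exclusion. T cells, which express Cxcr4, held 119, 290, 206 and 148 CPM. Itga4, the α4 integrin, stood at 342, 196, 257 and 295 CPM and had a ratio of −0.80 (−1.13 to −0.48) under ADU-S100 that turned to 0.16 at 2000 UMIs per cell.

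Of 27 pattern recognition receptors and lectins 8 were kept, and 3, 1 and 0 were at least 2-fold higher, with medians of 0.69, 0.50 and 0.08. After the exclusion 3, 3 and 4 were so and 1, 0 and 0 were lower, with medians of 0.81, 0.22 and 0.66, beside 2.55, 2.44 and 3.1% of all genes higher and 3.14, 0.849 and 1.92% lower. Cd14 and Mrc1 of this list were also among the genes by which members were left out. Nlrp3, the sensor of the inflammasome that matures interleukin-1β, stood at 208, 538, 302 and 187 CPM, with a ratio of 1.37 (1.08 to 1.66) under ADU-S100 that was 0.75 (0.25 to 1.25) after the exclusion. Tlr2 stood at 84.1, 171, 138 and 73.7 CPM, and its ratio of 1.01 (0.54 to 1.51) became −0.29. Cd14, a coreceptor for bacterial lipopolysaccharide that also counts as a macrophage marker here, was at 198, 795, 403 and 283 CPM in members and at 154, 459, 265 and 320 CPM in T cells.

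Of 7 Fc receptors 5 were kept and 2, 2 and 0 were at least 2-fold higher, though 0 of the 5 were so after the exclusion. Fcgr2b, the inhibitory Fc receptor, stood at 146, 319, 298 and 258 CPM, with ratios of 1.12 (0.77 to 1.49), 1.02 (0.70 to 1.37) and 0.82 (0.42 to 1.23) that became 0.46, 0.50 and 0.91. Fcgrt, the neonatal Fc receptor, was 2-fold lower under ADU-S100, at 202, 98.2, 147 and 159 CPM, with a ratio of −1.04 (−1.5 to −0.60) that became −0.26, and 0.04 at 2000 UMIs per cell. Of 7 receptors for colony-stimulating factors 5 were kept and 0 passed 2-fold. Csf1r stood at 173, 275, 299 and 249 CPM. Csf2rb2, a receptor β-chain for interleukin-3, stood at 145, 206, 132 and 78.3 CPM, with a ratio of −0.87 (−1.49 to −0.31) under the combination. It was −1.29 (−2.25 to −0.49) after the exclusion, so that 1 of the 5 passed 2-fold, and turned to 1.0 at 2000 UMIs per cell.

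Few members held cell cycle genes. At least 2 of 6 cell cycle genes were detected in 4, 2, 10 and 9 members, which is 5.33% (1.47 to 13.1), 3.28% (0.40 to 11.3), 6.94% (3.38 to 12.4) and 11% (5.14 to 19.8). The intervals overlap. Only 4 of 20 cell cycle genes reached the minimum, and Top2a, a topoisomerase of dividing cells, stood at 88.6, 27.4, 45.2 and 189 CPM, with a ratio of 1.09 (0.60 to 1.60) under the combination. A single member held 61.7, 82.4, 38.8 and 29.3% of the Top2a UMIs of its library, so the level followed few cells.

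Of 20 immediate early and heat shock genes, which also answer the dissociation of tissue, 14 were kept and 1, 0 and 0 were at least 2-fold higher. Atf3 stood at 683, 425, 550 and 412 CPM, with ratios of −0.68 (−0.91 to −0.46), −0.31 (−0.49 to −0.14) and −0.73 (−0.99 to −0.48) that the exclusion left at −0.80, −0.70 and −0.56. Ier3 was higher under ADU-S100, at 211, 618, 400 and 352 CPM, with a ratio of 1.55 (1.27 to 1.84) that became 0.25 after the exclusion. Of 17 hypoxia and glycolysis genes 12 were kept and 2, 1 and 0 were at least 2-fold higher, with medians of 0.44, 0.29 and −0.20. After the exclusion 2, 2 and 0 were higher, beside 2.55, 2.44 and 3.1% of all genes. Then 1, 0 and 0 were lower, beside 3.14, 0.849 and 1.92%. The medians were −0.28, 0.25 and −0.30, so the sign under ADU-S100 turned. Hilpda, a lipid droplet protein induced by hypoxia, stood at 85.6, 447, 147 and 57.6 CPM, with a ratio of 2.38 (1.97 to 2.82) under ADU-S100 that was 1.83 (1.11 to 2.62) after the exclusion. T cells held Hilpda at 184, 269, 168 and 188 CPM, above members in the other 3 libraries.

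Of 14 lysosomal and endosomal genes 11 were kept and 0 passed 2-fold. Psap, the precursor of the saposins that degrade sphingolipids, stood at 931, 864, 1421 and 1435 CPM and was higher in both libraries that received anti-LTβR, with ratios of 0.61 (0.48 to 0.75) alone and 0.62 (0.46 to 0.79) in the combination. The exclusion left them at 0.76 and 1.27. T cells held Psap at 468, 426, 565 and 702 CPM.

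Beyond the lists, the 5 highest and 5 lowest genes of each comparison were taken by the bound of their interval nearer 0. With ADU-S100 the highest were Trem1, Cebpb, Cpeb2, Ramp3 and Smox. Ramp3, a coreceptor for adrenomedullin and related peptides, stood at 41.3, 163, 59.0 and 80.6 CPM, with a ratio of 1.96 (1.36 to 2.64) that was 1.90 (1.02 to 2.90) after the exclusion. Trem1, an amplifier of myeloid inflammation, stood at 29.5, 151, 69.2 and 46.1 CPM, and Smox, a spermine oxidase, at 57.6, 212, 104 and 82.9 CPM. Their ratios of 2.33 (1.65 to 3.13) and 1.87 (1.36 to 2.44) became 0.67 (−0.68 to 2.01) and 0.34 (−0.75 to 1.38), so only Ramp3 and Cebpb of these 5 kept an interval above 0.

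Cpeb2, a regulator of mRNA translation, was among the highest genes of all 3 comparisons. It stood at 28.0, 127, 116 and 99.1 CPM and was detected in 18.7, 52.5, 37.5 and 24.4% of members. Its log2 ratios were 2.15 (1.44 to 2.99), 2.02 (1.35 to 2.83) and 1.8 (1.01 to 2.68), and after the exclusion 0.94 (−0.45 to 2.41), 1.57 (0.52 to 2.89) and 1.36 (0.10 to 2.76). T cells held Cpeb2 at 43.3, 71.8, 63.0 and 59.4 CPM, above members in the untreated library and below them in the others. The 3 comparisons share the untreated library, in which members gave only 19 UMIs.

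The lowest genes with ADU-S100 were Cd200r1, Btla, Immp2l, Ccnd1 and Ckb. Cd200r1, an inhibitory receptor of myeloid cells, stood at 88.6, 29.0, 77.5 and 89.8 CPM, with a ratio of −1.58 (−2.46 to −0.83) that the exclusion left at −1.61. Ccnd1, which encodes cyclin D1, stood at 428, 206, 323 and 288 CPM, with a ratio of −1.05 (−1.37 to −0.75) that became −1.60. Ckb, a creatine kinase, at 412, 198, 255 and 214 CPM, and Immp2l, a mitochondrial inner membrane peptidase subunit, at 307, 127, 242 and 247 CPM, had ratios of −1.05 and −1.27 that became −0.37 and −0.55. Wdfy4, needed for cross-presentation and listed here as a cDC1 marker, stood at 697, 309, 502 and 438 CPM in cDC2s, with a ratio of −1.17 (−1.42 to −0.93) that stayed at −1.11. In cDC1s of the same libraries Wdfy4 was at 2390, 1548, 2251 and 2223 CPM, again lowest with ADU-S100. Of 15 markers of cDC1s 7 reached the minimum in cDC2s, and 0, 0 and 0 were at least 2-fold higher and 2, 0 and 0 lower, with medians of −0.18, 0.22 and 0.19. Of 19 markers of mature dendritic cells 9 did so, and 2, 0 and 0 were higher and 0 lower, with medians of 0.10, 0.12 and 0.08. The 2 higher genes were Fabp5, a fatty acid-binding protein, and Marcksl1. After the exclusion 0 were higher and 1 was lower, with the combination, and under ADU-S100 Fabp5 went from 1.14 to −0.74 and Marcksl1 from 1.09 to 0.78. A single member held 38.5% of the Fabp5 UMIs of the ADU-S100 library.

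With anti-LTβR the lowest genes were Cd209c, Klrd1, Fnbp1l, Ccnd2 and Tmem14c. Cd209c, another DC-SIGN homolog, stood at 122, 38.6, 55.3 and 80.6 CPM, with a ratio of −1.14 (−1.65 to −0.65), or −0.83 (−1.87 to 0.13) after the exclusion. Fnbp1l, a regulator of actin at the membrane, stood at 153, 106, 76.5 and 66.8 CPM, with a ratio of −1.0 that became −1.56. Tmem14c, a mitochondrial protein of heme synthesis, stood at 183, 193, 97.7 and 136 CPM, with a ratio of −0.90 that became −0.92. These genes were at low levels in T cells, apart from Tmem14c, Klrd1 and Ccnd2.

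The lowest genes with the combination were Klrd1, Ccnd2, Mdh2, Cd300lf and Dab2. Klrd1, which encodes the NK receptor subunit CD94, stood at 627, 544, 305 and 157 CPM and was detected in 78.7, 73.8, 50.7 and 34.1% of members. Its log2 ratio was −1.04 (−1.25 to −0.83) under the antibody and −1.99 (−2.39 to −1.63) under both agents, and −0.66 and −2.05 after the exclusion. The list of T and NK cell markers summed to 1.48, 6.44, 31.4 and 25.3 CPM in members, a sum that the gate lowered by requiring no Cd3e, and the part of RNA from those cells in Klrd1 was not tested. Ccnd2, which encodes cyclin D2, stood at 502, 341, 262 and 223 CPM, with ratios of −0.94 (−1.17 to −0.71) and −1.16 (−1.51 to −0.84) in the same libraries, or −1.12 and −1.46 after the exclusion. For both genes the untreated library was highest and the combination lowest. T cells held Klrd1 at 434, 412, 377 and 349 CPM and Ccnd2 at 370, 370, 424 and 393 CPM, so both stood above T cells in untreated members and below them in those of the combination.

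Plac8 and Ifitm6, which monocytes and pre-dendritic cells express, followed a similar order. Plac8 stood at 1091, 1160, 772 and 456 CPM and Ifitm6, an interferon-induced transmembrane protein, at 264, 267, 186 and 92.2 CPM. Their ratios with the combination were −1.25 (−1.49 to −1.03) and −1.51 (−2.05 to −1.02), and the exclusion left them at −1.12 and −1.52. Both genes stood as high with ADU-S100 alone as in the untreated library. Other monocyte markers went the other way with the combination, and Ly6c2 was at 1.53. Of the 12 monocyte markers kept, 3 were at least 2-fold higher and 2 lower there, beside 1.62 and 0.959% of all genes. Cd300lf, an inhibitory receptor for lipids and dying cells, stood at 131, 109, 112 and 48.4 CPM, with a ratio of −1.42 (−2.20 to −0.74) that became −1.95. Mdh2, the mitochondrial malate dehydrogenase, at 468, 309, 327 and 210 CPM, and Dab2, an endocytic adaptor, at 891, 573, 597 and 422 CPM, had ratios of −1.15 (−1.51 to −0.82) and −1.08 (−1.33 to −0.84), which became −1.1 and −0.97.

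The highest genes with the combination besides Cpeb2 and Osm were Abtb2, Plaur and Lrmda. Plaur, the urokinase receptor, stood at 133, 389, 288 and 309 CPM, with a ratio of 1.21 (0.82 to 1.62) that became 1.56 after the exclusion. Lrmda stood at 174, 322, 280 and 359 CPM, with a ratio of 1.04 (0.69 to 1.40) that became 1.33. Abtb2 stood at 87.1, 190, 169 and 223 CPM, with a ratio of 1.35 (0.88 to 1.85) that became 0.61 (−0.06 to 1.29). Under ADU-S100 the ratio of Abtb2 went from 1.12 to −0.39 and that of Lrmda from 0.88 to −0.04. T cells held Abtb2 at 131, 200, 175 and 202 CPM. Ear2, an eosinophil-associated ribonuclease found in some cDC2s, was named after its values were seen. It was too low to enter but stood at 13.3, 14.5, 112 and 131 CPM, from 9, 9, 121 and 57 UMIs, high in both libraries that received anti-LTβR and at most 14.0 CPM in T cells.

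Markers of other cells moved with the groups. Summed over 18 macrophage genes, members held 1097, 2200, 1842 and 1329 CPM and T cells 2432, 2529, 2554 and 2960 CPM. The gate required no C1qa in members but not in T cells, which can lower the macrophage sum of members. Summed over 15 monocyte genes members held 6113, 7193, 7184 and 5022 CPM, against 2796, 3214, 3314 and 3481 CPM in T cells and 19327, 17954, 16616 and 18244 CPM in MHC II+ Ccr2+ monocytes. Over 15 neutrophil genes members held 561, 1590, 745 and 668 CPM, highest in the ADU-S100 library, where T cells held 1704 CPM. Gpnmb was at 0 in members of 3 libraries and Ly6g in those of 3, whereas Cd14, Cd68, Mrc1 and Wfdc17 were detected in all. Over the 15 monocyte and 18 macrophage genes, 12 and 7 reached the minimum.

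**Figure D3:**
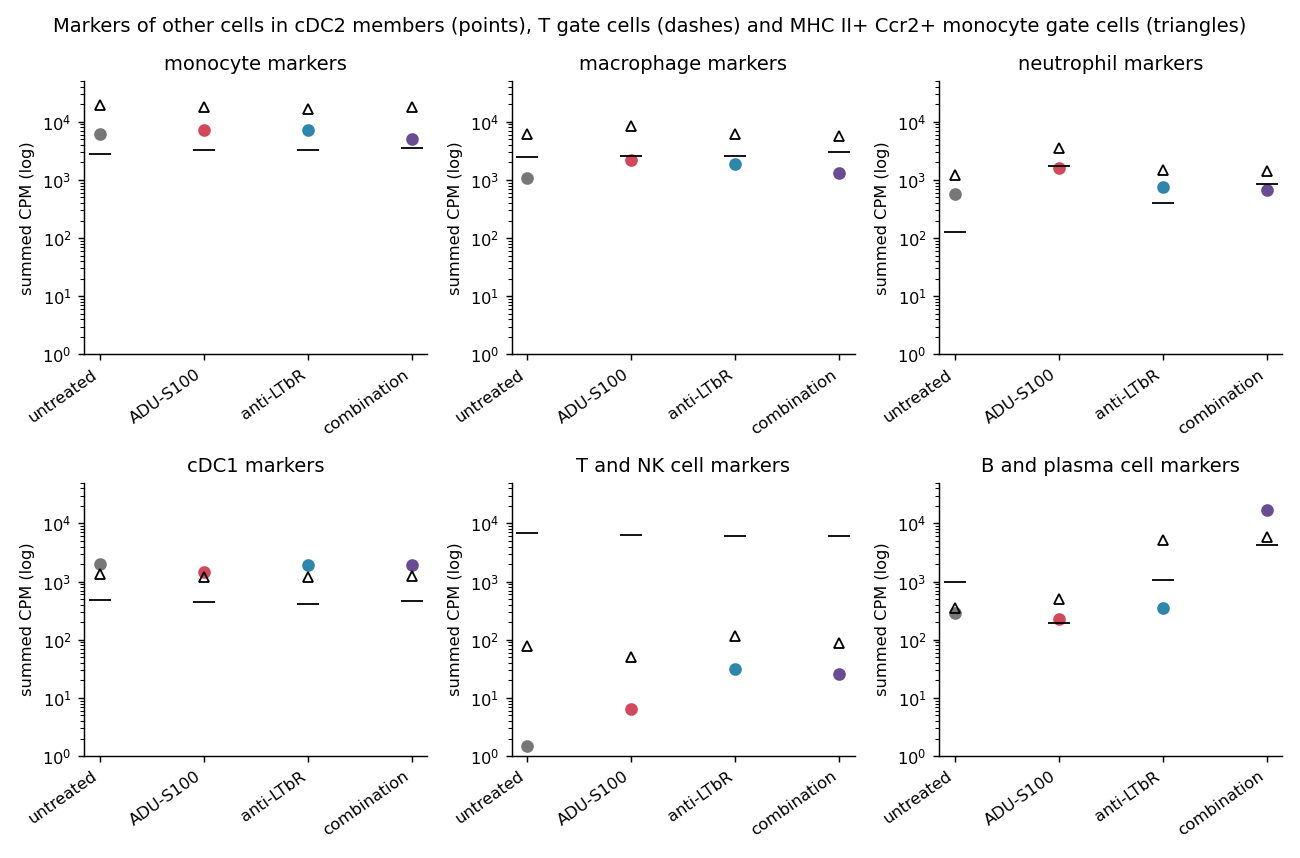
Summed levels of markers of other cells in cDC2s (points), T cells (dashes) and MHC II+ Ccr2+ monocytes (triangles) of each library, in CPM on a log axis. Macrophage markers in cDC2s are 1097, 2200, 1842 and 1329, below T cells in every library, and neutrophil markers reach 1590 with ADU-S100. The gate required no C1qa in cDC2s but not in T cells, which can lower the macrophage sum of cDC2s.

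Of the 12 monocyte genes 4, 4 and 3 were at least 2-fold higher and 0, 0 and 2 lower, and of the 7 macrophage genes 3, 3 and 2 were higher and 0, 0 and 1 lower. Fn1, which encodes fibronectin, stood at 50.2, 237, 261 and 122 CPM in members and at 172, 197, 267 and 261 CPM in T cells. Thbs1, which encodes thrombospondin 1, stood at 47.2, 431, 209 and 138 CPM in members and at 132, 332, 95.5 and 198 CPM in T cells. Mmp12, the macrophage elastase, stood at 16.2, 95, 147 and 150 CPM in members and at 65.2, 82.3, 138 and 151 CPM in T cells. The neutrophil genes S100a8 and S100a9 stood at 4.43, 195, 65.5 and 48.4 CPM and at 1.48, 349, 91.3 and 62.2 CPM in members, below T cells in every library. Members stood above T cells for Thbs1 with ADU-S100 and anti-LTβR, for Fn1 with ADU-S100 and for Mmp12 with ADU-S100 and anti-LTβR, and otherwise at or below them. The part of free RNA, of doublets and of myeloid gene expression by cDC2s themselves was not tested.

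Leaving out members that held genes of another lineage moved the groups unequally. The medians of macrophage and neutrophil genes are not compared here, since members were left out by those genes. Hypoxia and glycolysis genes went from 0.44 to −0.28 with ADU-S100, and cytokines from 1.45 to 0.10 with anti-LTβR. The MHC class II medians were then 0.09, −0.02 and −0.08 and those of class I −0.14, −0.22 and −0.32. Of the genes lower with the combination Klrd1, Ccnd2, Plac8, Ifitm6, Cd300lf and Mdh2 stayed at least 2-fold lower.

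**Figure D4:**
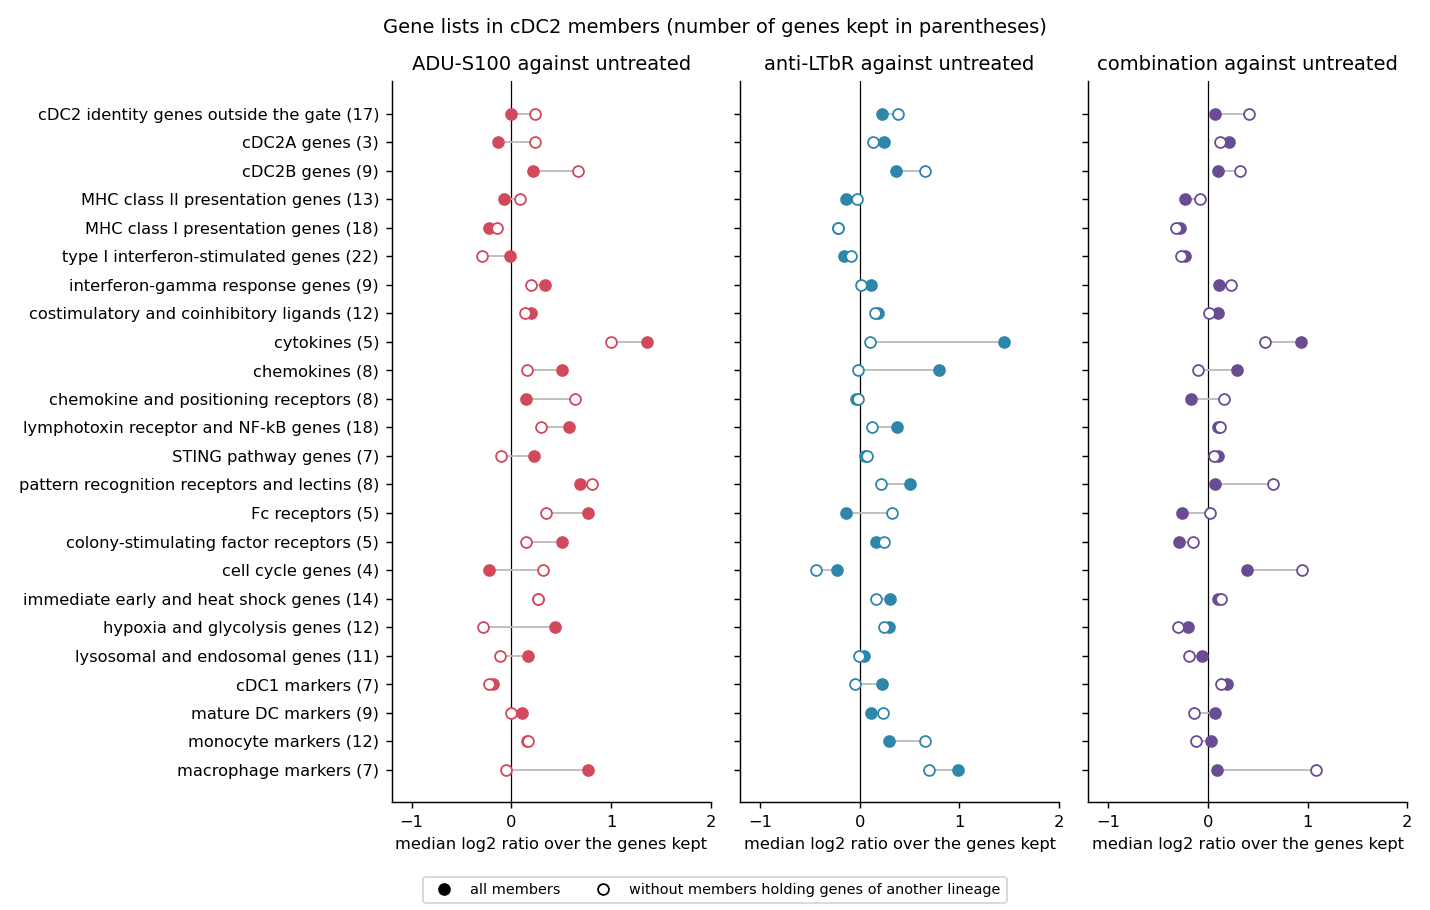
Median log2 ratio against untreated of 24 gene lists in cDC2s, for each treated library, without the lists of neutrophil, B and plasma cell, T and NK cell, plasmacytoid cell and carcinoma and stroma markers; filled points use all members and open points leave out members that held genes of another lineage. Of the lists drawn, cytokines stand farthest to the right with all members (1.36, 1.45 and 0.94), with open points at 1.00, 0.10 and 0.57; the open points of macrophage markers follow from the exclusion itself, which used those genes.

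**Figure D5:**
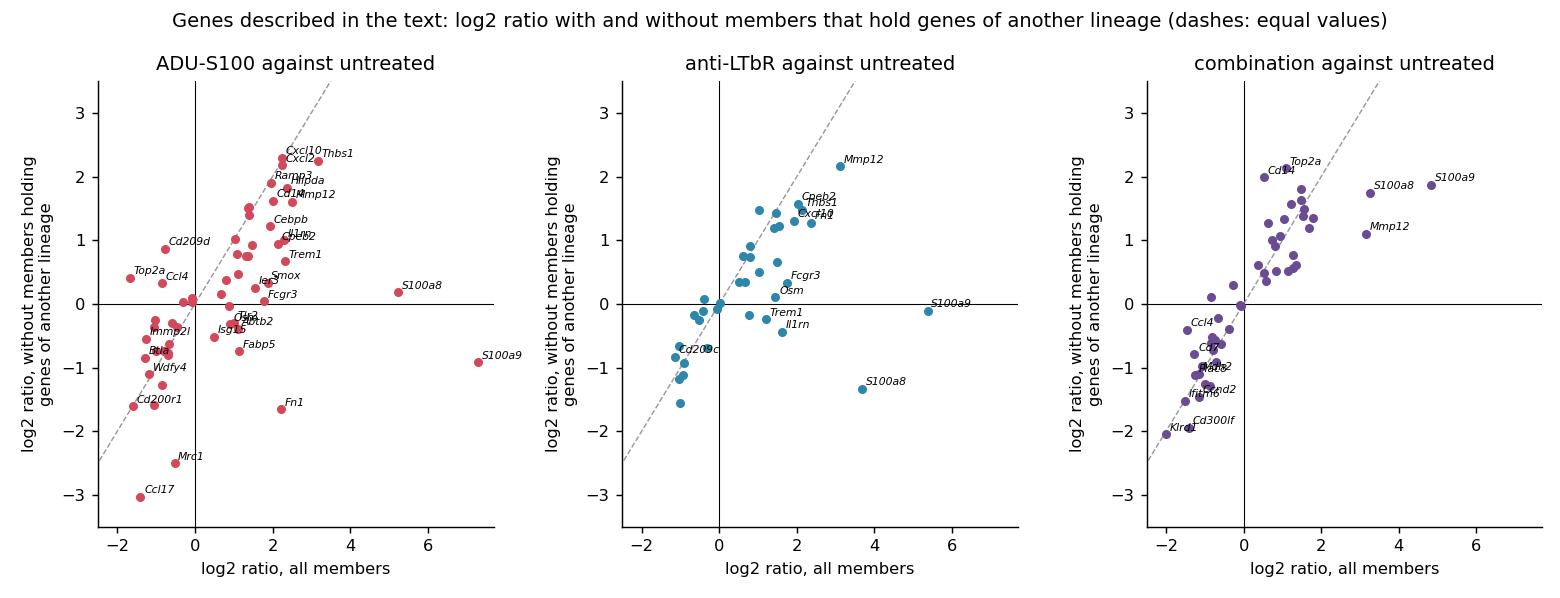
Log2 ratio against untreated of genes described, each in the comparisons for which it was recomputed, with all members on the horizontal axis and without members that held genes of another lineage on the vertical axis; each point is a gene and the dashed line marks equal values. Klrd1, Ifitm6 and Wdfy4 lie near the line, and S100a8, S100a9 and Fn1 lie far from it; S100a8 and S100a9 were among the genes by which members were left out.

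The last comparison set the combination against each agent alone, and these comparisons share libraries with those above. Against ADU-S100, 43 genes (1.59%) were at least 2-fold higher and 64 (2.36%) lower in the combination. Against anti-LTβR, 20 genes (0.738%) were higher and 20 (0.738%) lower, and immunoglobulin genes of the single member described above were among the higher ones in both. Ccl17 was 2.97 (2.37 to 3.67) higher on the log2 scale than with ADU-S100, while Hilpda was at −2.93 (−3.61 to −2.37) and Klrd1 at −1.79 (−2.19 to −1.42). Without members that held genes of another lineage these values were 4.53 (2.92 to 7.92), −1.98 (−3.02 to −1.12) and −2.26 (−2.89 to −1.72). The value of Ccl17 turned to −0.10 at 2000 UMIs per cell. Against anti-LTβR, Ccr2 was at −1.2 (−1.53 to −0.90) and Top2a at 2.06 (1.54 to 2.61). Without members that held genes of another lineage Ccr2 was at −0.64 (−1.28 to −0.06) and Top2a at 5.12, and Top2a UMIs lay in few members. For the cDC2 share of kept cells the interval against anti-LTβR excluded 1 with all members. Against ADU-S100 it did so only without members that held genes of another lineage. Other denominators then gave a ratio to ADU-S100 of 1.52 (0.963 to 2.40) for cells with Flt3 and H2-Aa. It was 1.30 (0.853 to 1.99) beside cDC1s and 1.32 (0.862 to 2.01) beside mature dendritic cells. With all members outside the neutrophil gate it was 0.928 (0.667 to 1.29). Each of these intervals included 1.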

How the data were processed

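Single-cell RNA of CD45+ cells from 4 libraries was analysed, 1 per group, grouped by the treatment in the sample labels. The deposited matrices hold UMI counts per gene and cell without normalization. Cell Ranger 8.0.1 wrote them per the file headers, whereas the submitters' processing notes name 7.1.0 and mm10, and the labels and the methods of the study name different versions of the 5′ kit, so no coordinates are given. Of 33696 features 26 had a repeated symbol, of which the first was used.

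Cells with 300 to 5000 genes and at most 6% mitochondrial UMIs were kept, as in the methods of the study. The members, the gates and the 29 gene lists were chosen with earlier results of these data known. No doublets were removed for the values reported, since Scrublet (scanpy 1.11.5) marked 0, 0, 1 and 0 cells by its own threshold. As an alternative the cells with the highest scores, 0.4% per 1000 deposited cells, were left out (305, 949, 857 and 1066 cells, of which 2, 6, 4 and 2 were members). UMIs were summed over members per library and scaled to the total, and genes were compared where the members of all 4 libraries together gave 200 UMIs or more, after adding 0.5 UMI. A difference of at least 2-fold was counted. Shares carry exact Clopper-Pearson, ratios of shares log-normal, levels exact Poisson and log2 ratios exact binomial 95% intervals.

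Genes were named by a rule. In each list it took the kept genes with the 2 highest and 2 lowest ratios in any comparison with untreated. It also took the 5 genes with the largest differences in each direction, ranked by the interval bound nearer 0, without gate, immunoglobulin, T cell receptor, mitochondrial, ribosomal, sex-linked and predicted genes, markers of other cell types, genes with over 20% of UMIs in 1 cell and genes at least as high in T cells. It named 163 genes, of which those with the clearest values are described. Genes given to check the cell type or a list's content stand outside the rule and were chosen after their values were seen. A few genes are not reported here.

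Alternatives changed the minimum of UMIs (100, 400 or none), the scaling (trimmed mean of M values with edgeR 4.0.16 in R 4.3.3, or a median of ratios), the weighting of cells, the depth (2000 UMIs per cell), the gate, the treatment of doublets and the denominator. At least 2 Flt3 UMIs and the removal of the member with over 1000 immunoglobulin UMIs were added after seeing the data. The step that computes ratios was tested on counts simulated from these libraries with Python 3.11.15, numpy 2.4.6 and scipy 1.17.1.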

Additional observations from a re-analysis of the deposited data

Results flagged for a closer look

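For some genes 1 agonist went with at least a 2-fold difference in 1 direction when given alone and at least a 2-fold difference in the other direction when the second agonist was also given. Each group is 1 library, so these differences between effects were not tested.

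The effect of ADU-S100 is the ADU-S100 library against untreated, and, with the antibody present, the combination against anti-LTβR. Fn1 went from 2.22 to −1.08 on the log2 scale, Fcgr3 from 1.78 to −1.05 and Hilpda from 2.38 to −1.32. Top2a went the other way, from −1.66 to 2.06, and up to 82.4% of its UMIs in a library lay in 1 member. Without members that held genes of another lineage the pairs of values were −1.66 and −0.51 for Fn1, 0.04 and −0.31 for Fcgr3, 1.83 and −1.28 for Hilpda and 0.41 and 5.12 for Top2a, so that of these 4 genes Hilpda still had opposite effects of at least 2-fold. The second value of Fn1 turned to 0.79 at 2000 UMIs per cell and to 0.67 with at least 2 Flt3 UMIs. Fn1 stood at or below the level of T cells in 3 of the 4 libraries. Hilpda stood below T cells in every library but that of ADU-S100, and up to 24.1% of its UMIs in a library lay in 1 member.

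The effect of anti-LTβR is the anti-LTβR library against untreated, and, with ADU-S100 present, the combination against ADU-S100. Fcgr3 went from 1.74 to −1.1, Cebpb from 1.49 to −1.09, Cd14 from 1.02 to −1.48 and Trem1 from 1.20 to −1.69. Thbs1 went from 2.13 to −1.63, S100a8 from 3.67 to −1.98 and S100a9 from 5.37 to −2.47. Cd209c went from −1.14 to 1.05. Each of these genes but Cd209c was at its lowest in the untreated library and at its highest in the ADU-S100 library. S100a8 and S100a9 were at or below the level of T cells in every library and had few UMIs in untreated members. A single member held up to 53.1% of the Thbs1, 66.7% of the S100a8, 100% of the S100a9 and 41.7% of the Cd209c UMIs of a library. Without members that held genes of another lineage the pairs were 0.33 and −0.02 for Fcgr3, 0.66 and −0.71 for Cebpb, −0.24 and −0.63 for Trem1, 1.48 and −0.86 for Thbs1 and −0.83 and 2.13 for Cd209c, so that none of these 5 genes had opposite effects of at least 2-fold. The second value of Thbs1 turned to 2.45 with at least 2 Flt3 UMIs, and those of S100a8 and S100a9 to 0.47 and 0.73 at 2000 UMIs per cell. Cd14, S100a8 and S100a9 were among the genes by which those members were left out, so their values in that setting follow from the exclusion and are not compared.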

How the results depend on the processing

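With 1 library per group no replicate could be left out. No paired analysis was possible because each group has 1 library. Of 45 ratios of shares under the alternatives 37 kept their value within the counting interval. With cells holding Flt3 and H2-Aa as the denominator the ratio turned from below to above 1 for ADU-S100 (1.02) and the combination (1.15) and was 1.69 for anti-LTβR and 0.680 for the combination against anti-LTβR. Without members holding genes of another lineage it was 0.743 for anti-LTβR and 0.781 for the combination against anti-LTβR. At 2000 UMIs per cell it was 1.84 for the combination against ADU-S100 and 0.814 against anti-LTβR.

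The counts of genes at least 2-fold higher and lower are given against untreated for the 3 treated libraries in their usual order, then for the combination against ADU-S100 and against anti-LTβR. With a minimum of 100 UMIs they were 178 and 95, 133 and 16, 105 and 81, 132 and 153, and 42 and 66. With 400 they were 42 and 12, 29 and 2, 25 and 11, 13 and 31, and 11 and 13. With no minimum they were 2268 and 2098, 1680 and 1327, 2132 and 1060, 2371 and 2364, and 2927 and 1655. At 2000 UMIs per cell they were 321 and 315, 203 and 175, 225 and 249, 280 and 357, and 166 and 250. Without members holding genes of another lineage 85 and 23 genes were lower with ADU-S100 and anti-LTβR, and the others were 84 and 52, 151 and 105, and 56 and 65. With at least 2 Flt3 UMIs they were 156 and 60, 110 and 19, 198 and 77, 108 higher, and 67 and 63. Either other scaling left 19 genes lower with ADU-S100, excluded genes at up to 1 UMI left 2 lower with anti-LTβR, and cells weighted alike gave 31 lower for the combination against anti-LTβR. Fewer members or UMIs widen the counting error, and the cause of each change was not tested.

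Of 936 list medians under the alternatives 10 changed sign, counted where the interval with all members excluded 0. With ADU-S100 macrophage genes were at −0.13 with a minimum of 400 UMIs and −0.057 without members holding genes of another lineage, a value set by that exclusion, since it used macrophage genes. In the same library hypoxia and glycolysis genes were at −0.28 without those members, and chemokines at −0.43 at 2000 UMIs per cell. With anti-LTβR chemokines were at −0.031 at 2000 UMIs and −0.021 without those members, and at 2000 UMIs monocyte genes were at −0.13, macrophage genes at −0.030 and MHC class I genes at 0.18. MHC class I genes with the combination were at 0.092 at 2000 UMIs.

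Only the ratios chosen for the text were run for single genes, and 55 of 1570 values changed sign by the same count. Without members holding genes of another lineage Fabp5 was at −0.74, Fn1 at −1.66, Cd209d at 0.87, Osm at −0.32, Ccl4 at 0.32, Top2a at 0.41, Abtb2 at −0.39, Lrmda at −0.035, Isg15 at −0.52, Tlr2 at −0.29, H2-Eb1 at 0.029 and Cd74 at 0.088 with ADU-S100. Il1rn was at −0.44, Nfkbia at −0.17, Trem1 at −0.24 and Ciita at 0.070 with anti-LTβR, and Ccr2 at 0.12 with the combination. S100a8, S100a9 and Cd14 were among the genes that the exclusion used, so no change is read from S100a9 at −0.92 with ADU-S100, where it had 0 UMIs left, from S100a8 at −1.33 and S100a9 at −0.11 with anti-LTβR, or from Cd14 at 0.37, S100a8 at 1.57 and S100a9 at 2.79 for the combination against ADU-S100. At 2000 UMIs per cell, which left 22 members with ADU-S100, Fn1 was at −0.34, Tnfaip2 at −0.51, Tlr2 at −0.21, Cd209d at 0.96, Osm at −0.74, Abtb2 at −0.67, Cd48 at 0.043, Itga4 at 0.16 and Fcgrt at 0.043 with it. Fn1 was then at −1.56, Cxcl10 at −1.15, Csf1r at −0.0029 and Cd74 at 0.25 with anti-LTβR, and Fn1 at −0.77, Osm at −0.42, Il1rn at −0.45, Ccl17 at −1.77, H2-Eb1 at 0.35, Cd74 at 0.33 and Csf2rb2 at 1.00 with the combination. Against ADU-S100 the combination was then at 0.47 for S100a8, 0.73 for S100a9 and −0.098 for Ccl17, and against anti-LTβR at 0.79 for Fn1. With at least 2 Flt3 UMIs Mrc1 was at 0.40 with ADU-S100 and Cd209d at −0.078 with the combination, and the combination was at 2.45 against ADU-S100 for Thbs1 and at 0.67 against anti-LTβR for Fn1. Cd74 with anti-LTβR was at 0.012 with cells weighted alike and 0.027 with at least 2 lectin UMIs, and H2-Eb1 with the combination at 0.014 under a median of ratios and 0.038 with cells weighted alike.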
